A study of Mus musculus with 7 samples.

Results

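The transcripts described here were those of 10 genes that neurons switch on within minutes to hours of electrical activity: Fos, Fosb, Junb, Arc, Npas4, Egr1, Egr3, Nr4a1, Bdnf and Homer1. They were matched by gene name among the 55536 genes of the deposited count table, and all 10 were found. They were named as a set and not picked by a rule on measured values, but earlier results of these data were known when they were chosen. Their counts were summed per well and cell type in single nuclei of the hippocampus, in dentate granule cells (marked by Prox1), CA1 pyramidal cells (Fibcd1), CA3 pyramidal cells (Grik4), Gad1 and Gad2 interneurons, and glia.

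The nuclei came from 24 mice, each in a barcoding well of its own, in 4 groups of 6 (3 females and 3 males per group). WT mice and Arctic mice were on the C57BL6/J background, and Arctic mice were Arctic48 hemizygotes, which carry a transgene of human amyloid precursor protein (hAPP) with the Swedish, Indiana and Arctic mutations. Mice of each genotype drank either water (WT-veh, Arctic-veh) or water with PMX205 at 20 µg/ml (WT-PMX, Arctic-PMX) for 12 weeks by the labels, and all were 10 months old and singly housed. The paper gives other lengths of treatment for this cohort. PMX205 is a cyclic hexapeptide that blocks the complement receptor C5aR1. Mice of the study were tested in a Y-maze at that age, and whether these animals were among them and how long before perfusion is not given in the sources used here. The labels place the transcription blockers actinomycin D and triptolide in the perfusion solution, whereas the methods describe plain HBSS for perfusion and add blockers for the separate preparation of CD11b cells, so it is not settled whether these nuclei met a blocker.

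Activity-induced genes are read out in waves. Calcium entering through NMDA receptors and voltage-gated channels activates kinases that phosphorylate CREB and SRF at promoters which are already open, and these transcribe the first genes without new protein. Several of the products are themselves transcription factors (Fos, Fosb and Junb, which pair as AP-1, Npas4, the zinc finger proteins Egr1 and Egr3, and the orphan nuclear receptor Nr4a1), and others act at the synapse: Arc, which drives AMPA receptor endocytosis, Homer1, a postsynaptic scaffold, and Bdnf, a secreted neurotrophin. In the hippocampus they are the classical marks of recently active cells, CA1 more than dentate granule cells, of which few fire at a time. Astrocytes also transcribe Fos and Junb when stimulated.

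After filtering, 43885 nuclei were kept, 1150 to 3111 per well, with 4389302 to 30001277 transcripts per well. The summed nuclei held 8591 dentate granule cells, 3219 CA1, 2372 CA3, 2652 interneurons, 5439 astrocytes, 4148 oligodendrocytes, 1398 oligodendrocyte precursors (OPC) and 1516 microglia. The types carried their markers, with Fibcd1 at 77.7 CPM (counts scaled to a library of 1e6) in CA1 and at most 4.58 in the other types, Gad2 at 338 CPM in interneurons and at most 3.52 elsewhere, and Grik4 at 2137 CPM in CA3 against 649 in dentate granule cells. Prox1, at 368 CPM in dentate granule cells, was also at 350 CPM in oligodendrocytes. Of the 39800 barcodes kept over both preparations, 9.64% occurred in at least 2 of the 7 sublibraries, which share the wells and are summed. Xist separated the 12 female from the 12 male wells, whereas App in neurons did not separate all genotypes: WT-PMX wells ran from 498 to 573 CPM, Arctic-veh wells from 571 to 792 and Arctic-PMX wells from 545 to 689. The study's reporting summary names a WT sample left out because its expression was that of an Arctic mouse, but gives no well, so all wells were kept under their labels. Glia were few in wells F3 and M3 of WT-veh, which gave 13 and 28 oligodendrocytes and 0 and 3 microglia. Nuclei were deeper in the Arctic groups: median transcripts per astrocyte were 1354 in WT-veh, 1624.5 in WT-PMX, 2446 in Arctic-veh and 2168.5 in Arctic-PMX. Levels are therefore given as CPM, and shares of nuclei after thinning to a fixed depth.

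Upstream sequence is shown for the 3 genes whose astrocyte level differed between genotypes (Fos, Junb and Bdnf) and for Nr4a1, the member with the lowest fitted values in Arctic CA1 and interneurons, because cAMP and calcium signals reach such genes through the short elements near their starts. The sequences are the 250 bases before the start in RefSeq's GRCm38.p6 promoters. Promoters of 7 of the 10 genes were read, and those of Arc, Egr1 and Egr3 were not. Letters in capitals match, on either strand, the core of the cAMP response element (CGTCA, or its reverse complement TGACG), the AP-1 site TGANTCA or the EGR site GCGNGGGCG.
Fos, chr12:85473640-85473889, plus strand: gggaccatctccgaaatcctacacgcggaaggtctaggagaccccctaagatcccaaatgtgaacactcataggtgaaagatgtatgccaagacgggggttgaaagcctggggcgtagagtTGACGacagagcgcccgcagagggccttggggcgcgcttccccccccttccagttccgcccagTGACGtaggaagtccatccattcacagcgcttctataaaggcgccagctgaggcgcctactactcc
Junb, chr8:84978749-84978998, minus strand: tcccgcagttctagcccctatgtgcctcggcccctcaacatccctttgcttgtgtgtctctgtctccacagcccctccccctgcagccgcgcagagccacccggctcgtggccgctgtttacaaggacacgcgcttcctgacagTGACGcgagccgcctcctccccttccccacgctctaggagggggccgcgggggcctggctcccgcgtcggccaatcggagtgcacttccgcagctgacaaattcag
Nr4a1, chr15:101266596-101266845, plus strand: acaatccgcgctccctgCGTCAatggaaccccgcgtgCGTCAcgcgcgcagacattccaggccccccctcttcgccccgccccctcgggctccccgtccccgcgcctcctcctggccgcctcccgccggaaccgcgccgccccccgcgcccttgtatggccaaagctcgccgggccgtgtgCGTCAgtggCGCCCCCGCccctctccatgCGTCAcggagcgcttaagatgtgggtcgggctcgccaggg
Bdnf, chr2:109692186-109692435, plus strand: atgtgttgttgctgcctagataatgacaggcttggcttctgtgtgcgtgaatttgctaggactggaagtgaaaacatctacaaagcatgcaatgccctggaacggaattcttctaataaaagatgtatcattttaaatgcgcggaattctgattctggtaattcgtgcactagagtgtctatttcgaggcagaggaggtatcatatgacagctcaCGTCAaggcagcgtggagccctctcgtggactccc
The first bases of the matches, counted from the start site, lie at -129 and -66 in Fos, at -106 in Junb, at -35 in this Bdnf promoter and at -233, -213, -69 and -40 in Nr4a1, which also holds an EGR match at -60. The core CGTCA occurs in 20.8% of the 32851 RefSeq promoters, the EGR site in 5.55% and the AP-1 site in 7.81%, so most of these matches are of a common kind. Those shares were counted over 300 bases, which take in 50 bases after the start that are not shown here. The whole element TGACGTCA (1.79% of promoters) and the CArG box (1.63%) did not match in any of the 14 promoters of the 7 genes, which says only that those letters are not in these windows. Another Bdnf promoter, whose start lies further 5′ in the gene, held an AP-1 match at -152. The Bdnf promoter shown is the only Bdnf entry with the core CGTCA, and the remaining Bdnf promoters held no match.

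The genes differ in how they are laid out, which bears on what a nucleus can show. In the mm10 annotation Fos spans chr12:85473890-85477273, Junb chr8:84974484-84978718 and Arc chr15:74669083-74672570, which are 69.5%, 54.3% and 87.6% exonic. Nr4a1 (chr15:101254269-101274795) is 17.1% exonic, Bdnf (chr2:109674700-109727007) is 11.9% exonic, and Homer1 (chr13:93299635-93405129) is 11.4% exonic over 105495 bases. Nuclear RNA holds intronic reads, so long genes gather more counts per transcript, and levels are compared here only within a gene. The transcripts of Homer1 (the activity-induced short form and the constitutive long form) and the several first exons of Bdnf were counted together and cannot be told apart. Bdnf overlaps the antisense gene Gm45346 and Junb overlaps Prdx2, and the strand setting of the counting is not given in the sources used here. Homer1 overlaps Gm47075 and Gm47088 on its own strand.

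Each gene had its own order of cell types. CA1 was the highest of the 8 types for Fosb, Arc, Npas4, Egr1, Egr3, Nr4a1 and Homer1, dentate granule cells for Bdnf, and astrocytes for Fos and Junb, all as means over all wells of both genotypes, and the highest type remained the same for all 10 genes with doublets kept, with another pseudocount and with nuclei named singly by marker score. Neighbours in the order were compared within wells on log2(CPM + 1) by a two-sided permutation test that swaps the types of a well. Of the 70 neighbouring pairs, 14 differed after Benjamini-Hochberg adjustment over the 70. For Fosb, CA1 and CA3 did not differ detectably (0.04, SE 0.22, CA1 higher in 12 of 24 wells).

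Among the early transcription factors, Nr4a1 was spread widely: 36.6 CPM in CA1, 20.9 in OPC, 19.5 in interneurons, 18.8 in CA3, 5.4 in oligodendrocytes, 4.0 in astrocytes and 2.6 in both microglia and dentate granule cells. CA1 exceeded interneurons by 0.94 (SE 0.10) on the log2 scale in 23 of 24 wells. Dentate granule cells, the most numerous neurons, thus lay no higher than glia in Nr4a1, and OPC exceeded astrocytes by 1.96 (SE 0.34) in 21 wells. Npas4, a factor that is specific to depolarised neurons, went from 7.92 CPM in CA1 to 4.2 in CA3 (0.82, SE 0.22, permutation p = 0.00127) and to 1.8 in interneurons (1.07, SE 0.23). Egr3 was at 7.68 CPM in CA1, 6.3 in CA3 and 5.5 in dentate granule cells. CA1 and CA3 did not differ beyond their spread for Egr3 (0.36, SE 0.17, permutation p = 0.0448 before adjustment), whereas dentate granule cells exceeded interneurons, at 0.6 CPM, in all 24 wells (2.16, SE 0.14). Egr1 was at 6.38 CPM in CA1, 5.5 in microglia, 4.1 in interneurons and 3.4 in astrocytes, with no step that passed between CA1 and interneurons (0.41, SE 0.20, permutation p = 0.0542).

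The synaptic effectors showed the same CA1 lead with one exception. Arc was at 12.2 CPM in CA1 and 5.8 in CA3 (0.83, SE 0.15, higher in 22 wells), and at 1.0 in dentate granule cells and 0.6 in interneurons. Oligodendrocytes, which should lack Arc, were listed at 6.09 CPM from 35 counts, with 11 wells at 0, so the values of dentate granule cells, interneurons and CA3 lie at or below that background and are not read as exceeding it (median depths 6005 transcripts in dentate granule cells, 7894.5 in interneurons, 16267 in CA3 and 1125 in oligodendrocytes). Homer1 was at 258 CPM in CA1, 210 in CA3, 84.5 in interneurons and 81.5 in dentate granule cells, CA1 exceeding CA3 by 0.30 (SE 0.045) in 22 wells and CA3 exceeding interneurons by 1.31 (SE 0.050) in 24. The exception was Bdnf, at 50.8 CPM in dentate granule cells, 41.0 in CA3 and 21.5 in CA1. Its steps from dentate granule cells to CA3 (0.38, SE 0.11, 20 wells, permutation p = 0.00344) and from CA3 to CA1 (0.88, SE 0.15, 22 wells) both passed. Interneurons were at 1.1 CPM, below astrocytes at 17.9, a level that came from the Arctic wells described next.

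Fos and its AP-1 relatives were scarce in neurons. Fos was at 0.3 CPM in dentate granule cells, 0.6 in CA1, 0.3 in CA3 and 1.1 in interneurons, from 14, 21, 14 and 26 counts over all 24 wells, and at 25.6 in astrocytes, which exceeded interneurons by 2.92 (SE 0.41) in 21 wells. Junb was at 10.7 CPM in astrocytes and 8.0 in microglia, a difference within the spread (1.06, SE 0.50, higher in 13 of 21 wells, permutation p = 0.0467 before adjustment), and at 1.3 to 2.9 in the neuronal subtypes. The Junb lead of astrocytes came from Arctic wells: in WT-veh and WT-PMX it was at 0.608 and 1.82 CPM in astrocytes and at 3.49 and 3.56 in CA1. Fosb, at 0.6 to 0.847 CPM in neurons, had 0 counts in astrocytes, where 3 counts over all wells would be 0.247 CPM.

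**Figure D1:**
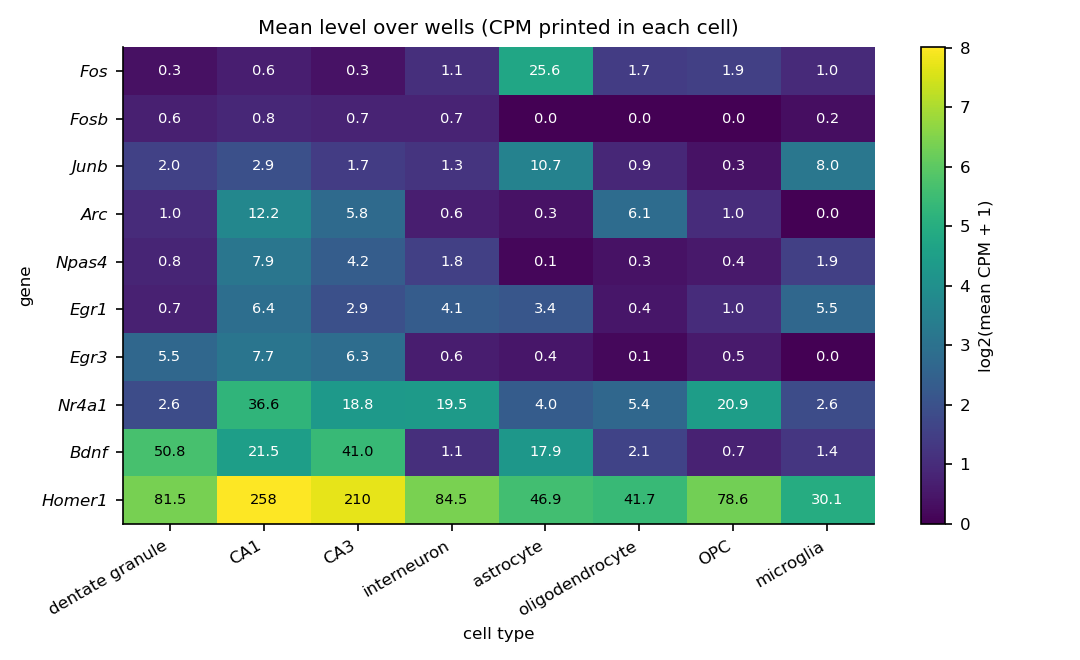
Mean CPM over wells (up to 24, number in each cell, colour log2(mean CPM + 1)) of the 10 genes (rows) in 4 neuronal subtypes and 4 glial types (columns). The CA1 column is highest for 7 genes, dentate granule cells for Bdnf (50.8 CPM), and astrocytes for Fos (25.6 CPM) and Junb (10.7 CPM), the Junb value being a mean of WT wells at 0 to 3.66 CPM and Arctic wells at 4.93 to 52.7.

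The genotype comparison asks whether amyloid pathology changes how these genes are read out. The largest differences were in astrocytes, not in neurons: Fos, Junb and Bdnf were higher in the astrocytes of Arctic mice than in those of WT mice on water, with or without PMX205. For background, 12.6% of the 7305 genes tested in astrocytes differed between Arctic-veh and WT-veh (7.62% higher in Arctic-veh), and 11.1% between Arctic-PMX and WT-veh (7.06% higher). In the neuronal subtypes the share between Arctic-veh and WT-veh was 0% to 0.271%, so astrocytes exceeded neurons for genes at large too. Fos, Junb and Bdnf passed the low-count filter, which asked for 20.6 CPM in a minimum number of wells, only through Arctic wells, so a high Arctic level was a condition of their being tested. Their adjusted p under the filter is therefore given as a description beside the values of each well. Fos and Junb passed the filter in no single neuronal subtype, so they were not compared there with the filter. Tested with all genes and no filter, they were also called between Arctic-veh and WT-veh (edgeR adjusted p = 5.79e-06 for Fos, 1.52e-07 for Junb and 3.44e-07 for Bdnf), as were 4.24% of the 23460 genes in that test. That fit uses the same counts and is not independent support. Over all neurons it called 0.547% of 33459 genes between these groups, against 0.0664% of 15069 with the filter.

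Astrocyte Fos, the partner of the Jun proteins in AP-1, ran from 0 to 12.5 CPM with a median of 6.07 in WT-veh wells, from 0 to 11.0 (3.97) in WT-PMX, from 14.1 to 48.7 (29.8) in Arctic-veh and from 22.1 to 81.1 (64.6) in Arctic-PMX. No Arctic well overlapped a WT well. Over all genes tested, 4.85% had every Arctic-veh well above every WT-veh well and 4.5% every Arctic-PMX well. The means were 6.13 ± 5.72, 5.32 ± 4.23, 30.4 ± 14.8 and 60.6 ± 21.4 CPM (SD, n = 6), from 14, 20, 105 and 210 counts. Against WT-veh, Fos was higher by 2.15 (SE 0.48) on the log2 scale in Arctic-veh (4.42-fold, edgeR adjusted p = 0.00129) and by 3.13 (SE 0.44) in Arctic-PMX (8.75-fold, adjusted p = 1.26e-06). Separation within each sex follows from that of all wells. WT-veh females had 0 to 8.50 CPM against 14.1 to 44.1 in Arctic-veh females, and males 0 to 12.5 against 15.9 to 48.7.

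Junb, an early AP-1 partner, had a single count in the 6 WT-veh wells together and 6 in WT-PMX, against 57 in Arctic-veh and 73 in Arctic-PMX. The wells ran from 0 to 3.65 CPM with a median of 0 in WT-veh, 0 to 3.66 (1.99) in WT-PMX, 4.93 to 22.1 (20.5) in Arctic-veh and 7.38 to 52.7 (21.5) in Arctic-PMX. Again no Arctic well overlapped a WT well. The pooled Arctic-veh level was 37.0 times that of WT-veh (exact 95% counting interval 6.37 to 1486), and the Arctic-PMX level 45.1 times (7.84 to 1805). The edgeR differences, which depend on the prior count at such a low control level, were 4.53 (SE 0.84, adjusted p = 0.000115) and 4.92 (SE 0.80, adjusted p = 1.7e-05). Prdx2, whose gene overlaps Junb, was at 14.2, 10.8, 11.7 and 11.7 CPM in the astrocytes of WT-veh, WT-PMX, Arctic-veh and Arctic-PMX, and its part in the Junb counts was not tested.

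Bdnf, better known from neurons, was at 0 to 10.0 CPM with a median of 3.95 in WT-veh astrocytes, 0 to 6.54 (3.93) in WT-PMX, 8.80 to 60.4 (24.6) in Arctic-veh and 12.9 to 81.1 (25.6) in Arctic-PMX. The Arctic-PMX wells lay above all WT wells, and the lowest Arctic-veh well reached into the WT-veh range. Bdnf was higher by 2.59 (SE 0.58, 6.03-fold, adjusted p = 0.00123) in Arctic-veh and by 2.78 (SE 0.57, 6.86-fold, adjusted p = 0.000472) in Arctic-PMX. The sexes differed in order among Arctic wells, with mean levels of 16.9 and 47.9 CPM for Arctic-veh and Arctic-PMX females and of 39.1 and 22.7 for males. Two-sided exact permutation tests of the well values against WT-veh gave an unadjusted p = 0.00216 for Fos and Junb in both Arctic groups and for Bdnf in Arctic-PMX. This is the smallest p that 6 against 6 wells allow, and any gene whose wells do not overlap reaches it. For Bdnf in Arctic-veh the unadjusted p was 0.00649. In each comparison 80 gene and type pairs were tested so, of which 7 had p below 0.05.

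The other members were not called. Homer1 was at 46.5 ± 15.3 CPM in WT-veh, 56.2 ± 8.94 in WT-PMX, 41.2 ± 14.6 in Arctic-veh and 43.8 ± 12.2 in Arctic-PMX astrocytes (SD, n = 6), a difference of -0.30 (SE 0.24, adjusted p = 0.523) between the genotypes on water. Its astrocyte level of 46.9 CPM over all wells was close to the 41.7 CPM of oligodendrocytes (median depths 1771 and 1125 transcripts) and is read as background, as is that of Nr4a1, at 3.25 to 4.87 CPM by group. Egr1 had 1, 6, 12 and 30 astrocyte counts in WT-veh, WT-PMX, Arctic-veh and Arctic-PMX and did not pass the filter. Its pooled level was 7.78 times that of WT-veh in Arctic-veh (exact 95% counting interval 1.15 to 333) and 18.5 times in Arctic-PMX (3.08 to 756.0). The exact permutation p over wells was 0.0108 and 0.0281, both before adjustment. Egr1 was called in Arctic-PMX against WT-veh when all genes were tested without a filter (adjusted p = 0.00235, with 3.85% of all genes called). Arc, Npas4 and Egr3 had 5, 2 and 6 astrocyte counts over all wells.

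Markers of other cells were present in the astrocyte sums. The 5 pan-neuronal markers, none at 0, summed to 646 CPM in WT-veh (wells 497 to 757), 470 in WT-PMX, 400 in Arctic-veh (212 to 592) and 443 in Arctic-PMX. Their mean was thus lower in the Arctic groups than in WT-veh. The 7 microglial markers summed to 47.2, 55.3, 54.0 and 65.7 CPM and the 6 oligodendrocyte markers to 96.6, 93.3, 78.5 and 89.9 CPM in the same order. Gfap, the filament of reactive astrocytes, was also higher in the Arctic groups, at 124 to 200 CPM in WT-veh wells and 750 to 1945 in Arctic-veh. Its means were 144 CPM in WT-veh, 234 in WT-PMX, 1350 in Arctic-veh and 1256 in Arctic-PMX. Unlike that of Fos, its mean was not higher in Arctic-PMX than in Arctic-veh. The part of these markers in the results was not tested. Without the WT-veh wells F3 and M3 the Arctic-veh differences were 2.18 for Fos, 4.43 for Junb and 2.56 for Bdnf. In these sums, more nuclei of a kind that transcribes a gene and more RNA per nucleus cannot be told apart.

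**Figure D2:**
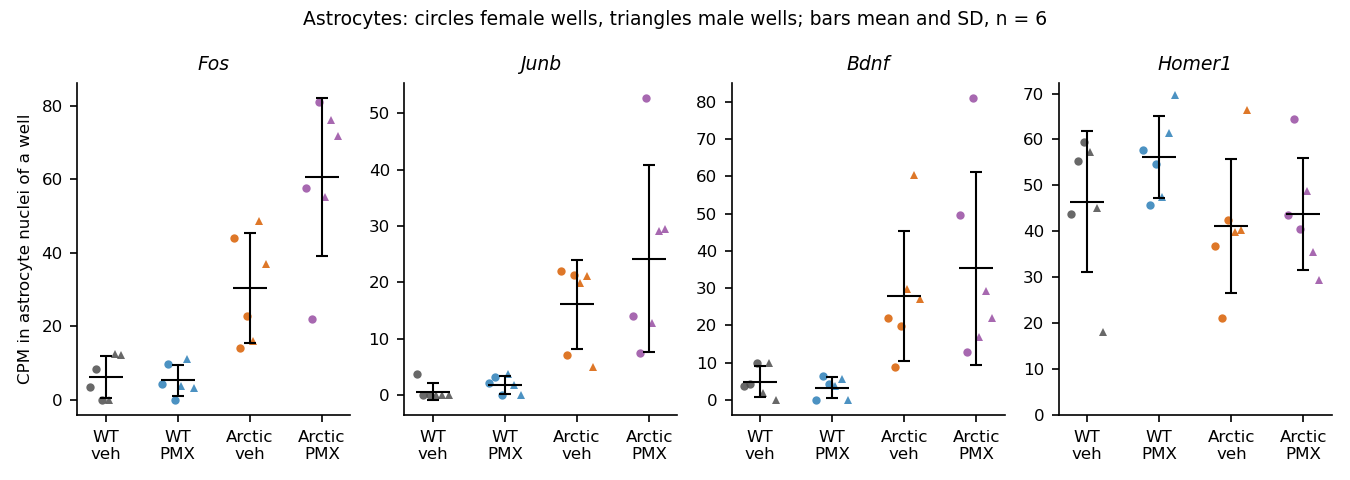
CPM of Fos, Junb, Bdnf and Homer1 in the astrocyte nuclei of each well (y axis) by group (x axis), with circles for female and triangles for male wells and bars for mean and SD (n = 6). All 12 Arctic wells lie above all 12 WT wells for Fos and Junb, and the groups overlap for Homer1.

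The astrocytes fell into 3 large clusters, which were made without the 10 genes: cluster 2, with Rorb and Gpc5 among its leading genes (3515 nuclei), cluster 10, led by Gfap and Osmr (1135 nuclei), and cluster 19, led by Aqp4 and Gfap (717 nuclei). No WT well had 10 nuclei in cluster 10. Cluster 10 held 269 of the 349 Fos counts of all astrocytes (77.1%), 107 of 137 Junb counts (78.1%), 210 of 251 Bdnf counts (83.7%) and 34 of 49 Egr1 counts (69.4%). Within it, Fos was at 43.9 ± 22.3 CPM in Arctic-veh and 94.0 ± 31.4 in Arctic-PMX, Junb at 24.7 ± 13.3 and 35.9 ± 28.0, and Bdnf at 45.8 ± 24.4 and 58.5 ± 44.2 (SD, n = 6). The few WT nuclei of cluster 10 gave 0 Fos counts in 14 WT-veh nuclei and 5 in 27 WT-PMX nuclei, a pooled 72.7 CPM, which is within the range of the Arctic wells.

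In cluster 2, the largest astrocyte cluster over all wells, the genotypes on water did not separate. It held 1332 nuclei in WT-veh and 1291 in WT-PMX, but 414 in Arctic-veh and 478 in Arctic-PMX. Cluster 10 held more in those 2 Arctic groups, 556 and 538. Fos in cluster 2 was at 6.45 CPM in WT-veh, 2.85 in WT-PMX, 6.10 in Arctic-veh and 19.9 in Arctic-PMX, from 13, 8, 4 and 16 counts. Arctic-veh did not differ detectably from WT-veh (exact permutation p = 0.913), a comparison that rests on few counts. Arctic-PMX against WT-veh had an exact permutation p of 0.0281 and against Arctic-veh of 0.0390, and none of the 27 tests of the 3 genes in these clusters passed after adjustment over the 27. Bdnf was at 5.02, 3.2, 2.68 and 6.12 CPM and Junb at 0.656, 1.53, 1.61 and 5.88 CPM in cluster 2. In cluster 19, Fos was at 3.73 CPM in the 4 WT-veh wells with enough nuclei, 16.4 in WT-PMX, 17.8 in Arctic-veh and 21.4 in Arctic-PMX (Arctic-veh against WT-veh, exact permutation p = 0.0762). Most counts of the 3 genes thus lay in the Gfap-led nuclei. Gfap itself differed between the genotypes, so a change within a kind of astrocyte and the sorting of changed nuclei into another cluster cannot be told apart.

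**Figure D3:**
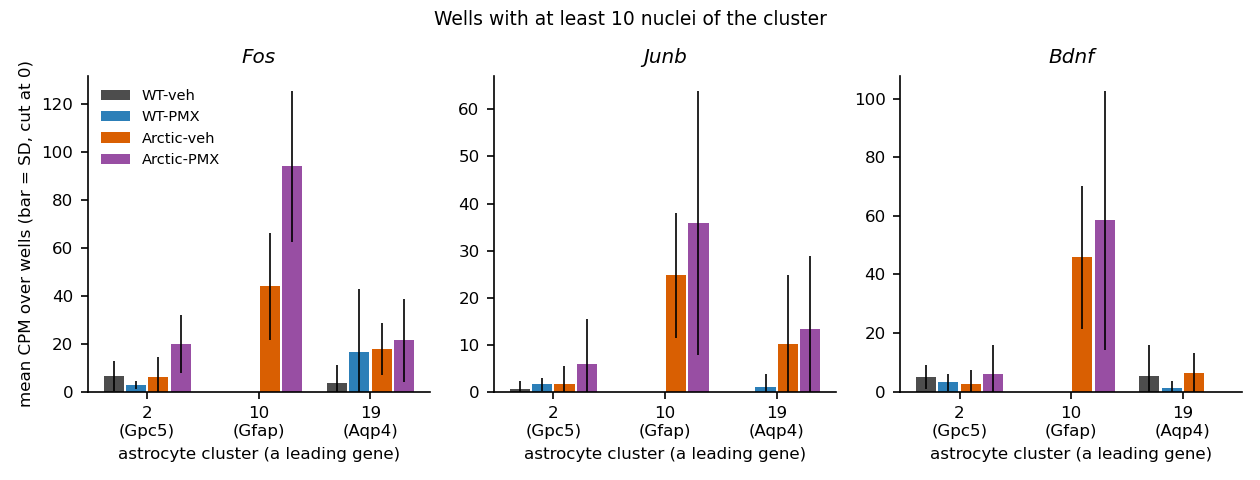
Mean CPM over wells with at least 10 nuclei (bars, with SD) of Fos, Junb and Bdnf in astrocyte clusters 2, 10 and 19, by group. Cluster 10, which has no WT bars, is the highest for all 3 genes, with Fos at 43.9 CPM in Arctic-veh and 94.0 in Arctic-PMX.

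The share of astrocytes with a transcript was also compared. After thinning each astrocyte to 500 transcripts, Fos was detected in 0.284% of nuclei in WT-veh, 0.296% in WT-PMX, 1.22% in Arctic-veh and 2.36% in Arctic-PMX (means of wells), against 0.748%, 0.952%, 6.71% and 10.95% without thinning. Against WT-veh the exact permutation p was 0.0043 for Arctic-PMX and 0.0433 for Arctic-veh, of which the latter did not pass after adjustment over the 10 genes. With doublets kept, a setting that also drew the 500 transcripts anew, Fos was found in 0.332% of WT-veh, 0.827% of Arctic-veh and 2.10% of Arctic-PMX nuclei. The exact permutation p was then 0.0411 for Arctic-PMX and 0.130 for Arctic-veh, and neither passed. The part of the new random draw in this loss was not tested, so the passing share rests on 1 draw. In oligodendrocytes, which serve as the background, Fos was found in 0.077% of thinned nuclei. Junb went from 0.068% to 0.489% and 0.808%, and Bdnf from 0.179% to 1.26% and 0.732%, in WT-veh, Arctic-veh and Arctic-PMX. Among the 2490 Arctic astrocytes at full depth, Junb was found in 16.4% of the 214 nuclei with Fos and 3.25% of those without, Bdnf in 17.8% against 4.39%, and Egr1 in 7.48% against 0.615%. Deeper nuclei hold more of every gene, and at 500 transcripts only 45 of these nuclei had Fos, 1 of them with Junb, so co-occurrence is a description without a test.

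In the 4 neuronal subtypes no member was called between the genotypes. Over the 4 subtypes 17 gene and subtype pairs passed the low-count filter: Bdnf, Egr3 and Homer1 in dentate granule cells, Arc, Bdnf, Egr1, Egr3, Homer1, Npas4 and Nr4a1 in CA1, Arc, Bdnf, Egr3, Homer1 and Nr4a1 in CA3, and Homer1 and Nr4a1 in interneurons. By edgeR 0 of the 17 passed an adjusted p of 0.05 between Arctic-veh and WT-veh, with 4 at an unadjusted p below 0.05, and DESeq2 also called 0. The share of all tested genes called was 0.271% in dentate granule cells, 0.044% in CA1, 0.169% in CA3 and 0% in interneurons. Over all genes, 976 of 10334, 662 of 9084, 642 of 9450 and 453 of 8860 had an unadjusted p below 0.05 in the same order. Between Arctic-PMX and WT-veh it was again 0 of 17, with 3 at an unadjusted p below 0.05 and 0 by DESeq2 (0.387%, 0.022%, 0.116% and 0.0113% of all genes called). Here 913, 478, 462 and 409 of all genes had an unadjusted p below 0.05. The SE of these differences ran from 0.12 for Homer1 in CA1 to 0.55 for Arc in CA3, so small changes in the sparse genes were not detectable at this depth.

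**Figure D4:**
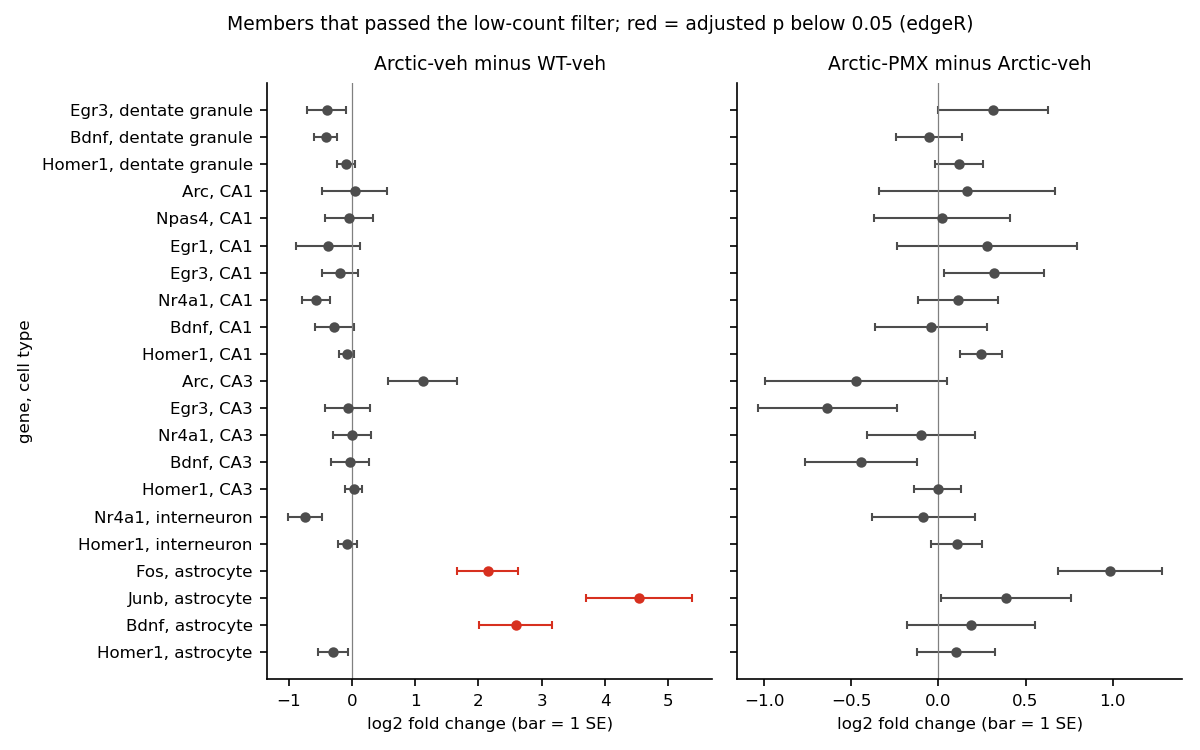
Log2 fold change (x axis, bar 1 SE) of each member that passed the low-count filter in a cell type (y axis), Arctic-veh minus WT-veh on the left and Arctic-PMX minus Arctic-veh on the right. The 3 red points with adjusted p below 0.05 are Fos (2.15), Junb (4.53) and Bdnf (2.59) in astrocytes on the left, and none is on the right. These 3 passed the filter in astrocytes only through Arctic wells. Fos and Junb passed it in no single neuronal subtype, so they have no neuronal points.

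Nr4a1, which is induced through CREB and MEF2, had the lowest fitted value of the members tested in CA1 and in interneurons. In CA1 it ran from 29.1 to 59.5 CPM with a median of 39.7 in WT-veh, 29.3 to 66.0 (38.1) in WT-PMX, 21.1 to 41.1 (29.1) in Arctic-veh and 20.6 to 52.9 (29.1) in Arctic-PMX. The groups overlapped. The difference between Arctic-veh and WT-veh was -0.56 (SE 0.22, edgeR p = 0.0157, adjusted p = 0.602), with an exact permutation p of 0.0455 before adjustment. In interneurons Nr4a1 ran from 14.8 to 32.7 CPM with a median of 22.9 in WT-veh, 15.5 to 32.9 (26.5) in WT-PMX, 9.44 to 24.3 (12.9) in Arctic-veh and 4.35 to 24.9 (14.6) in Arctic-PMX. Here too the groups overlapped, and the differences from WT-veh were -0.74 (SE 0.27, adjusted p = 0.954) in Arctic-veh and -0.83 (SE 0.28, adjusted p = 0.993) in Arctic-PMX. In CA3 Nr4a1 was at 17.9 ± 5.31 CPM in WT-veh and 17.9 ± 8.95 in Arctic-veh (0.00, SE 0.30). Whether the genotype difference varies between subtypes was not tested. Dentate granule cells held 155 Nr4a1 counts in all and were at 3.25, 4.11, 1.64 and 1.5 CPM in WT-veh, WT-PMX, Arctic-veh and Arctic-PMX, below the oligodendrocyte level. Summed over all neuron clusters, the Nr4a1 difference was -0.46 (SE 0.21, adjusted p = 0.616). Tested without a low-count filter it was -0.46 (SE 0.125, adjusted p = 0.0462), with 0.547% of the 33459 genes called. For Arctic-PMX against WT-veh it was then -0.54 (SE 0.126, adjusted p = 0.00972), with 0.311% called. The Arctic-veh value was the same with and without the filter and only its SE was smaller, so that call is not separate support.

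Bdnf, in contrast to astrocytes, had a value below 0 in dentate granule cells. Its wells there ran from 44.8 to 75.7 CPM with a median of 54.6 in WT-veh, 39.0 to 75.5 (63.6) in WT-PMX, 26.9 to 58.9 (43.2) in Arctic-veh and 24.6 to 65.8 (42.5) in Arctic-PMX. The groups overlapped, and the differences from WT-veh were -0.41 (SE 0.18, adjusted p = 0.483) in Arctic-veh and -0.47 (SE 0.19, adjusted p = 0.433) in Arctic-PMX. In CA1 Bdnf was at 23.8 ± 5.12 CPM in WT-veh and 21.2 ± 9.65 in Arctic-veh, and in CA3 at 42.0 ± 15.4 and 43.4 ± 21.6 (SD, n = 6), with differences of -0.28 (SE 0.31) and -0.03 (SE 0.30). Over all neurons Bdnf was called in Arctic-PMX against WT-veh in the test without a low-count filter alone (-0.49, SE 0.13, adjusted p = 0.0455, with 0.311% of all genes called). Interneurons had 33 Bdnf counts in all wells.

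**Figure D5:**
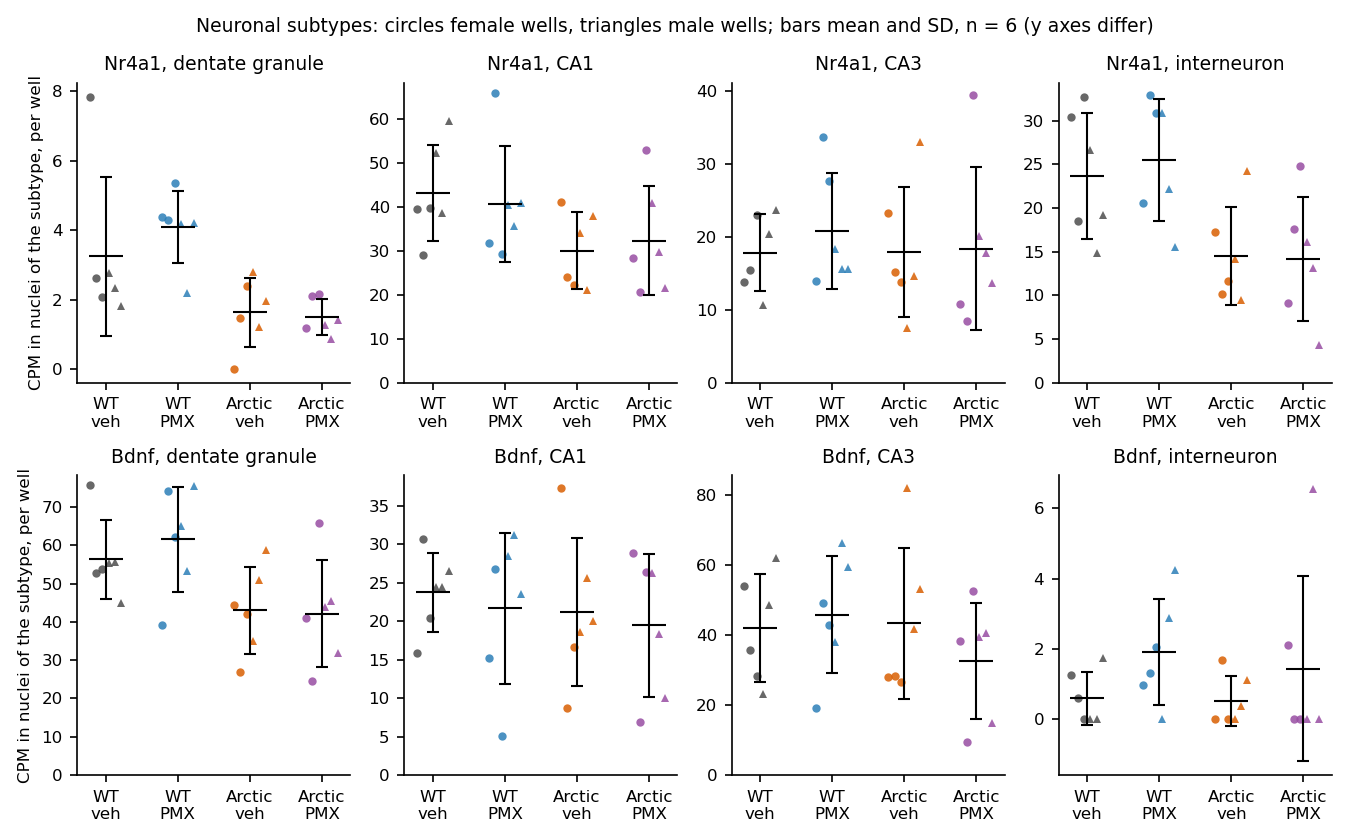
CPM of Nr4a1 (upper row) and Bdnf (lower row) per well in the 4 neuronal subtypes (y axes differ), by group (x axis), with circles for female and triangles for male wells and bars for mean and SD (n = 6). The groups overlap in every panel: Nr4a1 in CA1 spans 29.1 to 59.5 CPM in WT-veh and 21.1 to 41.1 in Arctic-veh.

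Arc had the highest of the 17 fitted values, in CA3, at a level no higher than the oligodendrocyte background. It passed the filter there through other groups than WT-veh. The 6.48 CPM of the filter was exceeded in 0 WT-veh, 2 WT-PMX, 2 Arctic-veh and 3 Arctic-PMX wells. Being tested thus favoured a value above WT-veh, and the rank is a description. Its wells there spanned 2.09 to 4.53 CPM in WT-veh (median 3.69) and 3.89 to 16.2 in Arctic-veh (median 4.57). The ranges overlapped: wells F2 and M3 of Arctic-veh were at 16.2 and 13.8 CPM, and the 4 others at 4.88 or less. The difference was 1.12 (SE 0.55, adjusted p = 0.734), and it ran from 0.39 to 1.30 over 33 alternatives of processing. In CA1 Arc was at 9.05 ± 4.32, 15.9 ± 14.4, 10.4 ± 6.40 and 13.6 ± 12.8 CPM in WT-veh, WT-PMX, Arctic-veh and Arctic-PMX (SD, n = 6), a genotype difference of 0.05 (SE 0.51). Dentate granule cells and interneurons had 68 and 17 Arc counts over all wells.

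Homer1 had the smallest error of the members in each subtype. It was at 252 ± 40.1 CPM in WT-veh and 238 ± 18.6 in Arctic-veh CA1, 209 ± 13.7 and 213 ± 32.0 in CA3, 81.7 ± 12.9 and 77.0 ± 17.5 in dentate granule cells, and 83.3 ± 7.83 and 79.2 ± 10.7 in interneurons (SD, n = 6). The fitted differences were -0.08 (SE 0.12), 0.03 (SE 0.14), -0.09 (SE 0.14) and -0.07 (SE 0.15). Npas4 in CA1 was at 7.39 ± 1.74 CPM in WT-veh and 7.44 ± 1.57 in Arctic-veh (-0.04, SE 0.38). In the other subtypes Npas4 did not pass the filter, with 174 counts in CA3, 57 in interneurons and 46 in dentate granule cells.

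The zinc finger factors gave wide intervals. Egr3 was at 5.34 ± 1.71 CPM in WT-veh and 4.61 ± 2.35 in Arctic-veh dentate granule cells (-0.40, SE 0.31), at 7.42 and 6.84 CPM in CA1 (-0.18, SE 0.28) and at 7.13 and 6.68 CPM in CA3 (-0.07, SE 0.36). Egr1 was at 6.10 and 4.91 CPM in CA1 (-0.38, SE 0.50). In dentate granule cells Egr1 had 42 counts and means of 0.83, 1.32, 0.422 and 0.066 CPM in WT-veh, WT-PMX, Arctic-veh and Arctic-PMX, where Arctic-PMX was below WT-veh by the exact permutation test (p = 0.0411, before adjustment for the 80 gene and type pairs tested so, of which 7 had p below 0.05).

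The AP-1 genes could be compared only over all neurons, where all 10 members passed the filter. Fos had 280 counts there, Fosb 310 and Junb 776, and the genotype differences were -0.56 (SE 0.55), -0.16 (SE 0.49) and -0.28 (SE 0.31), with 0.0664% of all genes called. In single subtypes they stayed under the filter: Fosb had 20 to 32 counts per subtype and Junb 35 to 132 over all wells. Arctic-veh dentate granule cells had 0 Fos counts, where 3 counts over the group would be 0.201 CPM.

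PMX205 was compared with water within each genotype, since the antagonist was given to ask whether blocking C5aR1 alters the course in Arctic mice. No member was called in any neuronal subtype in either genotype. By edgeR 0 of 17 pairs passed between Arctic-PMX and Arctic-veh, with 0 at an unadjusted p below 0.05 and 0 by DESeq2, and 0% of all genes were called in each subtype. The same counts, 0, 0 and 0, held between WT-PMX and WT-veh, and for the PMX205 effect of Arctic mice minus that of WT mice. Over all neurons Arc was called between WT-PMX and WT-veh in the test without a low-count filter alone (0.79, SE 0.18, adjusted p = 0.0192, with 0.0807% of all genes called). The largest neuronal values were -0.64 (SE 0.40) for Egr3, -0.47 (SE 0.52) for Arc and -0.44 (SE 0.32) for Bdnf, all in CA3, within Arctic mice, and 0.80 (SE 0.56) for Arc in CA3 and 0.62 (SE 0.49) for Arc in CA1 within WT mice. Homer1 in CA1, the member with the smallest error, was at 238 CPM in Arctic-veh and 279 in Arctic-PMX, a difference of 0.24 (SE 0.12).

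In astrocytes Fos was at 30.4 CPM in Arctic-veh and 60.6 in Arctic-PMX, and the wells overlapped (14.1 to 48.7 and 22.1 to 81.1). The difference of 0.98 (SE 0.30) had an edgeR p of 0.00208 that did not pass over all genes (adjusted p = 0.9998), where 0.0137% of genes were called, and the exact permutation p was 0.0238, the only 1 below 0.05 among the 80 gene and type pairs of that comparison. In cluster 10 the Fos difference was 1.11, with an adjusted p of 0.83 by edgeR and an exact permutation p of 0.0130 that did not pass over the 27 cluster tests. Junb (0.39, SE 0.37), Bdnf (0.19, SE 0.37) and Homer1 (0.10, SE 0.22) had differences near their errors. The effect of PMX205 on Fos in Arctic astrocytes minus that in WT astrocytes was 1.03 (SE 0.73, adjusted p = 0.9999). In WT astrocytes the values were -0.05 (SE 0.67) for Fos, 1.65 (SE 1.23) for Junb and -0.34 (SE 0.85) for Bdnf.

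Both sexes stood in every group, with 12 wells each. By edgeR 0 of 17 neuronal pairs differed between males and females at an adjusted p of 0.05, 6 had an unadjusted p below 0.05, and DESeq2 called 1, Homer1 in CA1. The share of all genes called was 0.174% in dentate granule cells, 0.418% in CA1, 0.0635% in CA3 and 0.079% in interneurons. Over all genes, 1525 of 10334, 1340 of 9084, 1291 of 9450 and 1005 of 8860 had an unadjusted p below 0.05 in the same order. Homer1 in CA1 had means of 233, 209, 223 and 261 CPM in females and 271, 315, 253 and 296 in males of WT-veh, WT-PMX, Arctic-veh and Arctic-PMX. Males were the higher sex in each group, by 0.33 (SE 0.085, adjusted p = 0.0726 by edgeR and 0.026 by DESeq2), and Homer1 was also higher in male CA3 (0.28, SE 0.096, adjusted p = 0.212) and interneurons (0.31, SE 0.105, adjusted p = 0.286) without passing. Arc in CA1 was at 8.54, 21.1, 13.5 and 23.0 CPM in females and 9.57, 10.6, 7.36 and 4.14 in males (-1.04, SE 0.35, adjusted p = 0.172). Over all neurons 0.073% of genes were called and no member was by edgeR with the filter, with Homer1 at 0.33 (SE 0.074, adjusted p = 0.0810 by edgeR and 0.0079 by DESeq2). Without the low-count filter, Homer1 and Arc in CA1 and Bdnf in CA3 (0.55, SE 0.12, adjusted p = 0.00146) were called, as were Arc (-0.66, adjusted p = 0.000158) and Homer1 (0.34, adjusted p = 0.000339) over all neurons. That test called 0.715% of all genes in CA1, 0.508% in CA3 and 1.37% over all neurons, against 0.418%, 0.0635% and 0.073% with the filter. Its errors were smaller on the same counts: Arc in CA1 was at -1.01 with an SE of 0.183, against 0.35 with the filter. Calls there are thus not separate support. Arc in CA1 was also called when WT-PMX M1 was left out (adjusted p = 0.0362), and Homer1 in CA1 when Arctic-PMX F1 (adjusted p = 0.00311) or M3 (0.0405) was. In the study's maze test females went before males, so for any of these animals that were tested, sex and testing order cannot be told apart.

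The genotype difference on water was also compared between the sexes. None of the 17 pairs passed by edgeR, 2 had an unadjusted p below 0.05, DESeq2 called 0, and 0% of genes were called. Over all genes, 366 of 10334 in dentate granule cells, 311 of 9084 in CA1, 294 of 9450 in CA3 and 304 of 8860 in interneurons had an unadjusted p below 0.05. Homer1 in dentate granule cells went from 92.8 to 65.9 CPM in females and from 70.7 to 88.2 in males, WT-veh to Arctic-veh, a difference of -0.88 between the sexes (SE 0.215, adjusted p = 0.732). Egr1 in CA1, the other, had 2.15 (SE 0.97, adjusted p = 0.9998).

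The share of nuclei with a transcript was read after thinning neurons to 2000 transcripts, which left out 180, 199, 25 and 99 shallower dentate granule cells in WT-veh, WT-PMX, Arctic-veh and Arctic-PMX, and 4 to 85 nuclei per group of each other subtype. In CA1 Homer1 was found in 36.9% of nuclei, Nr4a1 in 7.05%, Bdnf in 4.27%, Arc in 2.09%, Egr3 in 1.52%, Egr1 in 1.42% and Npas4 in 1.09%. CA3 gave 34.2% for Homer1, 6.36% for Bdnf and 3.21% for Nr4a1, and interneurons 15.2% for Homer1 and 3.86% for Nr4a1. In dentate granule cells Bdnf was found in 9.64%, Egr3 in 1.12% and Fos in 0.042%. For a common depth with glia, at 500 transcripts Arc was found in 0.703% of CA1 nuclei and 0.264% of oligodendrocytes, Nr4a1 in 1.37% and 0.238%, and Npas4 in 0.544% and 0%. Between Arctic-veh and WT-veh, Egr3 in dentate granule cells was found in 0.589% and 1.44% of nuclei (unadjusted exact permutation p = 0.0065), and in 0.948% in Arctic-PMX (unadjusted exact p = 0.0303). Neither passed after adjustment over the 10 genes, nor did the CPM of Egr3 (4.61, 5.34 and 5.43).

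Nuclei with several of the genes at once were rare. At 2000 transcripts, at least 2 of the 8 rapid members (all but Bdnf and Homer1) were found in 1.36% of CA1 nuclei, 0.531% of CA3, 0.331% of interneurons and 0.173% of dentate granule cells, and no nucleus held more than 4. Of 8088 dentate granule nuclei 4 had Fos, of which 3 had Bdnf, 2 Fosb and 2 Egr1, 1 each had Junb, Npas4, Egr3 or Nr4a1, and 0 had Arc. At full depth 9 of 8591 had Fos, and 7 of these had Junb (77.8%, against 1.32% of nuclei without Fos), 7 Egr1, 7 Egr3, 6 Arc, 6 Fosb, 6 Npas4 and 8 Bdnf. In CA1 at 2000 transcripts, 68 nuclei had Arc, of which 7 had Egr1 (10.3%, against 1.23% without Arc), and 36 had Npas4, of which 8 had Nr4a1 (22.2% against 6.88%). Of the 36 with Npas4, 3 had Fosb (8.33% against 0.096% without Npas4), 2 Junb (5.56% against 0.48%), 2 Egr1 and 2 Egr3 (each 5.56% against 1.38%), and of the 68 with Arc, 8 had Nr4a1 (11.8% against 6.95%). Some other pairs differed little or lay the other way at this depth: Egr3 was in 1.47% of nuclei with Arc and 1.42% without, Homer1 in 39.7% and 36.8%, and Bdnf in 2.78% of nuclei with Npas4 and 4.22% without. Of the 2 CA1 nuclei with Fos, 1 had Fosb, 1 Arc and 1 Npas4, and neither had Egr1, Egr3, Junb, Nr4a1, Bdnf or Homer1. At full depth in CA1, of 16 nuclei with Fos, 12 had Nr4a1 (75% against 27.8% without Fos), 9 Egr1, 8 Arc, 5 Bdnf and 2 Junb, Egr3 was in 16.7% of the 305 nuclei with Arc and 7.28% without, and Bdnf in 26.0% of nuclei with Npas4 and 16.1% without. Nuclei differ in depth, so a deep nucleus holds more of every gene, and these shares are a description without a test.

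The pathway around the members was read from 3 lists: 18 rapid genes, 20 later genes and 21 genes of the signalling that leads to them (NMDA receptor subunits, calcium channels, CaM kinases, CREB and MEF2). In dentate granule cells 5, 11 and 21 of them were tested, and 0 of each were called between Arctic-veh and WT-veh, with median log2 differences of -0.38, -0.08 and 0.00 against 0.01 over all genes. In CA1 3, 12 and 21 were tested, 0 called, with medians of -0.24, -0.01 and 0.02 against 0.01. In CA3 4, 13 and 20 were tested, 0 called, with medians of 0.28, 0.25 and -0.07. In interneurons 8 later and 20 upstream genes were tested, 0 called, with medians of -0.22 and 0.03, and the 1 rapid gene tested had 0.21.

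The only neuronal list gene called was Sorcs3, a receptor of postsynaptic sites, in dentate granule cells of Arctic-PMX against WT-veh. Its wells ran from 120 to 257 CPM in WT-veh and from 37.2 to 183 in Arctic-PMX, and overlapped. The means were 174 ± 44.9 CPM in WT-veh, 130 ± 29.6 in WT-PMX, 95.6 ± 26.8 in Arctic-veh and 86.3 ± 53.6 in Arctic-PMX (SD, n = 6), and Sorcs3 was lower by -1.08 (SE 0.24, adjusted p = 0.030). The call was lost in 13 of 36 alternatives, among them DESeq2 (adjusted p = 0.071), a fit of the compared groups alone (0.063) and leaving out WT-veh F3 (0.121), WT-veh M1, M2 or M3 (0.069, 0.056, 0.053) or Arctic-PMX F1, F2, M2 or M3 (0.082, 0.089, 0.089, 0.076), and without both WT-veh F3 and M3 it was 0.226.

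In Arctic-veh astrocytes 4 of 18 tested upstream genes were called against WT-veh, beside 12.6% of all genes, in microglia 1 of 13, beside 11.8%, and 0 of 14 each in oligodendrocytes, beside 2.61%, and OPC, beside 0.844%. In Arctic-veh astrocytes Camkk2, a kinase upstream of CaM kinases, was higher by 1.99 (SE 0.30, adjusted p = 3.71e-06), and the NMDA receptor subunits Grin1 (-0.92, SE 0.30, adjusted p = 0.0370), Grin2a (-0.79, SE 0.24, adjusted p = 0.0247) and Grin2b (-0.54, SE 0.13, adjusted p = 0.00317) were lower, in the same direction as the pan-neuronal markers given above. Grin1 is itself among those markers, and the part of the markers in the result was not tested. In Arctic-PMX astrocytes 2 of the 18 were called higher and 1 lower than in WT-veh, beside 11.1% of all genes called. Camkk2 (1.90) and Grin2b (-0.48) were called again, Grin1 and Grin2a were not, and Camk4 was higher by 1.44 (SE 0.40, adjusted p = 0.0125). In microglia the transcription factor Mef2d was higher by 1.15 (SE 0.37, adjusted p = 0.0328) in Arctic-veh. In Arctic-PMX it was higher by 1.10 (SE 0.38, adjusted p = 0.04996), at the edge of the threshold. WT-veh held only 135 microglia, against 697 in Arctic-veh and 556 in Arctic-PMX, and its wells F3 and M3 had too few to be used. Between Arctic-PMX and WT-veh 1 of 13 upstream genes was called, beside 11% of all genes.

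Genes that varied most like the members from mouse to mouse were ranked by their correlation over the 24 wells with the mean of Fos, Junb, Arc, Egr1 and Nr4a1, after group and sex means were removed. In dentate granule cells the nearest of 5609 genes were Vps39 (r = 0.793), Per2 (0.767), Stk25 (0.745), Tgfbrap1 (0.723) and Zfp142 (0.719), and among the nearest in CA1, of 5440 genes, were Brd2 (0.818), Med25 (0.761), Mllt11 (0.752) and Sugp1 (0.747). Bdnf (-0.11 and -0.01) and Homer1 (0.19 and -0.10) were not among them. Of the 5 averaged members, 3 rested in dentate granule cells on few counts (14 of Fos, 68 of Arc and 42 of Egr1 over all wells), where counting error is large. The wells also share their nuclei and depth with both sides of each correlation, which is given as a description.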

How the data were processed

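RNA of single nuclei from the hippocampi of 24 mice was measured by split-pool barcoding, with 1 mouse per first-round well. The authors deposited raw transcript counts per gene and barcode, without normalization, made with the Parse split-pipe pipeline; the submitters' processing notes name mm10 and bcl2fastq. Genotype, treatment and sex of each well came from the deposited sample sheet. Counts were summed over the 7 sublibraries, which share all wells. Kept nuclei had 300 to 50000 transcripts, over 400 genes and under 1% mitochondrial transcripts, and 1253 doublets (2.78%) were removed (scanpy 1.11.5). Nuclei were clustered (leidenalg 0.10.2, resolution 1.5, 2000 variable genes, 30 components) without the members and lists, and named from marker genes.

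Counts were summed per well and type (at least 10 nuclei) and compared by edgeR 4.0.16 in R 4.3.3 (TMM, filterByExpr by group, quasi-likelihood test, sex as covariate, all 4 groups in 1 fit), with Benjamini-Hochberg adjustment at 0.05 over all genes of a type. The test was tested on simulated counts. Single genes were also compared by two-sided exact permutation of well values, and types by permutation with 100000 resamples (pseudocount 1 CPM, scipy 1.17.1). Named genes are the 10 members, list genes that passed, and the 5 genes most like the members in dentate granule cells and CA1, of which 1 is not reported here. The members and lists were chosen with earlier results of these data known. Arc in CA3, Egr1 in dentate granule cells and single outlying wells were chosen for mention after their values were seen. Sequences and motif shares came from RefSeq promoters of GRCm38.p6, the assembly also called mm10. Comparisons within the astrocyte clusters, exact tests of members under the filter and CA1 with a cluster led by Dcn added were chosen after seeing the data. Other alternatives were DESeq2 1.42.0, other scaling, no filter, no sex term, single wells left out, doublets kept, other nuclei filters and namings, a replicate block and parts of the sublibraries. The CD11b cells, pools of 2 to 3 mice, are used only for values at the end. Wells are separate animals, so p-values cover the spread between mice, and counting intervals cover counting error only.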

Additional observations from a re-analysis of the deposited data

Results flagged for a closer look

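Of the 92 sets of 6 wells examined for a single well far from the other 5 of its group, 7 held such a well, and chance gives about 1 in 20. Bdnf in dentate granule cells was at 75.7 CPM in WT-veh F1 (nearest well 55.6), and Homer1 there at 110.5 CPM in Arctic-veh M2 (nearest 78.9). Well F2 of WT-PMX stood apart in CA1 for 2 genes, with Egr3 at 11.3 CPM from 11 counts (nearest 7.72) and Nr4a1 at 66.0 CPM from 64 counts (nearest 40.9). Egr3 in CA3 was at 13.6 CPM in WT-veh F3 (nearest 7.42). Junb in WT-veh astrocytes was at 3.65 CPM in F1, from the single count of that group, with the other 5 wells at 0, where any single count would stand apart. Homer1 in oligodendrocytes was at 76.8 CPM in Arctic-PMX M2, from 13 counts in 156 nuclei (nearest 40.9). None of these values is one of Fos, Junb or Bdnf in Arctic astrocytes.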

How the results depend on the processing

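Between Arctic-veh and WT-veh, 3 members were called over the 4 neuronal subtypes and astrocytes, all in astrocytes. The count was 0 with only those groups in the fit (members fell under the filter), 1 with sublibraries 1 to 4 and 0 with sublibraries 5 to 7, where fewer pairs were tested. Between Arctic-PMX and WT-veh the count was 3, and 1, 1 and 0 in the same alternatives. With no low-count filter, in a fit on the same counts that called more genes over all neurons, Fos, Junb and Bdnf were still called. In the other alternatives they were tested only where Arctic wells carried them past the filter, so calls there say nothing of stability; the Arctic-veh differences ran from 1.67 to 2.62, 4.18 to 6.10 and 2.10 to 3.01. Between the sexes 0 members were called, against 1 by DESeq2, 3 without a low-count filter, and 0 to 1 when each well was left out. After adjustment over the 10 genes of a type, 1 share of nuclei differed between groups (astrocyte Fos, Arctic-PMX against WT-veh), against 9 without thinning, 2 with thinning to 1000 transcripts and 0 with doublets kept. The thinned alternatives each used a new random draw of transcripts, whose part in these counts was not tested. Dentate granule and CA1 nuclei with a Fos transcript, the base of the co-detection, numbered 6 after thinning and 25 without it, since thinning removes transcripts. Wells with the same sex and number did not pair (median correlation 0.066 in dentate granule cells, and 9 of 24 wells correlated best with their own number), and the replicate block gave 3 calls in each Arctic comparison, of the same filtered kind. The direction of fold changes over the alternatives was tallied only for chosen pairs, among them Fos, Junb and Bdnf in astrocytes and Nr4a1 in CA1. None of these changed direction. Pairs with differences near 0, such as Homer1 in CA3 and Npas4 in CA1, were not tallied. In contrast, Bdnf in CA1 nuclei with against without Npas4 went from 2.78% against 4.22% after thinning to 26.0% against 16.1% without it. Sparse counts limit Fos, Fosb and Junb in neurons, and a count of 0 there does not show absence.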

Other observations

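Cells outside the neuronal subtypes and large glial types held some of the highest pooled levels of the early factors. Egr1 was at 70.8 CPM in the choroid plexus cluster (184 counts in 634 nuclei), 28.7 in fibroblasts and 21.3 in mural cells. Nr4a1 was at 97.3 CPM in a neuron cluster led by Fn1 and Rxfp1 (468 nuclei) and at 60.4 in mural cells. Endothelial cells had Fos at 21.2 CPM, Egr3 at 17.4 and Fosb at 7.72, and mural cells had Junb at 42.6 CPM from 12 counts. These values are pooled over wells and were not compared between groups.

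In the separate CD11b-selected cells, which were prepared with blockers of transcription and translation, Arc had 0 counts in all groups. Egr1 was at 5.25, 4.25, 10.5 and 12.2 pooled CPM in WT-veh, WT-PMX, Arctic-veh and Arctic-PMX, from 2, 2, 24 and 13 counts in 488, 532, 1707 and 1096 cells. Nr4a1 was at 15.8, 19.1, 3.95 and 4.70 CPM in the same order, from 6, 9, 9 and 5 counts. In WT-veh the median over wells was 6.42 CPM and the highest well 74.9, and WT-PMX had 4 wells.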
